A study of Mus musculus with 68 samples.

Results

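The 8 genes described are Slc25a38, Alas1, Alad, Uros, Urod, Cpox, Ppox and Fech, which serve heme synthesis. They were taken by name through their Ensembl identifiers, and all 8 were present among the 13197 genes listed for founders and the 12803 listed for the crosses. The cells were primary mouse embryonic fibroblasts (MEFs) of the 8 inbred founder strains of the Collaborative Cross: A (A/J), B6 (C57BL/6J), 129 (129S1Sv/ImJ), NOD (NOD/ShiLtJ), NZO (NZO/H1LtJ), CAST (CAST/EiJ), PWK (PWK/PhJ) and WSB (WSB/EiJ). MEFs of 5 F1 crosses of a B6 mother with a CAST, 129, NOD, NZO or WSB father (xCAST, x129, xNOD, xNZO and xWSB) were measured in the same way. Cells of each genotype received tunicamycin (TM) in DMSO at 2 ug/ml for 4 h, or DMSO alone as control. TM blocks the N-linked glycosylation of new proteins and thereby brings about endoplasmic reticulum (ER) stress. There were 18 control and 22 TM libraries in the founder set and 14 of each in the F1 set, with 2 or 3 libraries per genotype and treatment. The MEFs of a genotype were pooled from the female embryos of a single litter, so replicate libraries come from the same cell pool. P-values below therefore measure the spread between wells, and a difference between strains cannot be told apart from a difference between litters or cell preparations.

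Heme is made by a chain of enzymes that starts and ends in the mitochondrion and runs through the cytosol in between. Slc25a38 is a carrier of the inner mitochondrial membrane that brings in glycine, and Alas1, the housekeeping 5-aminolevulinate synthase, joins glycine to succinyl-CoA in the step that limits the rate in most cells. In the cytosol Alad makes porphobilinogen, Uros later closes the ring built from it, and Urod removes carboxyl groups to give coproporphyrinogen III. Cpox, the oxidase of the mitochondrial intermembrane space, turns this into protoporphyrinogen IX, Ppox oxidises that to protoporphyrin IX, and Fech (ferrochelatase) inserts the iron. In fibroblasts heme serves cytochromes, catalase and other enzymes rather than hemoglobin, and erythroid cells use another first enzyme, Alas2.

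Among the 8 genes Cpox alone was called changed within single genotypes. Its level with TM was higher by 2.38 fold (xNOD) to 3.65 fold (xWSB) over the 13 genotypes, and every TM library lay above every control library of its own genotype. Slc25a38 and Uros rose slightly on average over the founders, Fech fell slightly, and Alas1, Alad, Urod and Ppox did not pass the test. The level without TM differed between strains for 5 of the 8 genes, against 35.8% of all genes. The calls of Ppox and Fech among these were lost without certain single controls. Strain means of this level spanned 5.82 fold for Alad and 4.05 fold for Uros. No strain by treatment interaction passed the test for the 8 genes, against 0.174% of all genes.

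The stretch upstream of Cpox is shown because Cpox carries the response, and a short stretch upstream of Herpud1, an ER membrane protein of the protein disposal pathway induced by ER stress, is shown beside it because it holds an ER stress element. Both come from RefSeq for GRCm38.p6, and 7 of the 8 genes had an entry there. The Cpox stretch is the 250 bases before the RefSeq start site, chr16:58669958-58670207 on the + strand, and the Herpud1 stretch is chr8:94386367-94386397 on the + strand. Capitals mark a match of the GATA core TGATAA, read on the other strand, in Cpox and of the ER stress element ERSE-II in Herpud1.
Cpox: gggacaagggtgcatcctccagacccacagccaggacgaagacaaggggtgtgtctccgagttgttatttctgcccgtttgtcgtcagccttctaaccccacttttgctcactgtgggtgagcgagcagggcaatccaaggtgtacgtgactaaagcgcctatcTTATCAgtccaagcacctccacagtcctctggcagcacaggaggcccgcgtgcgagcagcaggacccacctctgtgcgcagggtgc
Herpud1: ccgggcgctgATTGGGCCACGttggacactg

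The upstream 250 bases of the genes were searched on both strands for 9 motifs. They were the ATF4 motif (CARE) TGATGNAA, the ATF6 motifs ERSE and ERSE-II, the XBP1 core TGACGTG, the NRF1 motif, the NRF2 core TGACNNNGC, the SP1 core GGGCGG and the GATA cores TGATAA and AGATAA. Over the 10349 promoters of genes listed in the expression tables, CARE occurred in 1.95%, ERSE in 0.155%, ERSE-II in 0.0483%, the XBP1 core in 2.27%, the NRF1 motif in 8.04%, the NRF2 core in 12%, the SP1 core in 59.6%, TGATAA in 3.61% and AGATAA in 5.56%. The Cpox stretch held TGATAA, beginning at position -86 relative to the start site, and no match of the other motifs. None of the 7 genes held CARE, ERSE, ERSE-II or the XBP1 core in this window, whereas Herpud1 held CARE at -112 and ERSE-II at -52. Uros held the NRF1 motif at -47, Slc25a38 held the NRF2 core at -55, and the SP1 core was found upstream of Alas1, Alad, Uros and Urod. These are matches of letters only and say nothing about binding.

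The values are reads per gene scaled by the TMM method to a common library size, called normalised read counts here, without division by gene length. Founder and F1 libraries were scaled apart, so levels are compared only within a set. In the 66 libraries from which whole reads could be recovered, reads on genes ranged from 6442976 to 29528457. All 5 ER stress genes examined rose in the mean over founders and over crosses. Hspa5, the ER chaperone BiP, rose 7.08 fold, Ddit3 (CHOP) 14.9 fold and Herpud1 19.8 fold on average over the founders, and each was called in all 8 founders and all 5 crosses. Atf4, a transcription factor of the stress response, rose 2.31 fold and Xbp1, another, 2.27 fold, and both were called in 5 of 8 founders and 4 of 5 crosses. Among fibroblast markers all 6 were listed, with a summed level between 11568 and 44937 in control libraries and between 10479 and 36219 with TM over both sets. Of 14 erythroid markers, 2 were listed for founders and 4 for crosses, with a summed level between 0.105 and 11.8, and no globin gene was listed for founders. Alas2, the erythroid first enzyme, lay between 0 and 1.73 in the 40 founder libraries. Myeloid markers (7 of 8 listed) summed to between 8.23 and 63.1 in founder controls and to between 6.94 and 52.8 with TM. Epithelial markers (4 of 5 listed) summed to between 32.0 and 132 in founder controls and to between 23.8 and 118 with TM, and the 5 endothelial markers to between 3.13 and 19.9 and between 1.67 and 11.9. In the founder mean 3 of 6 fibroblast markers (Col3a1, Pdgfrb and Thy1) and 3 of 7 myeloid markers (Cd68, Csf1r and Lyz2) fell with TM, against 21.9% of all genes. In the cross mean 2 of 6 and 2 of 4 fell, against 18.7% of all genes. No epithelial or endothelial marker passed in either mean. The part of the marker changes in the results on the 8 genes was not tested. In bulk RNA, fewer cells that express a gene and less of its RNA per cell cannot be told apart.

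Levels of different genes can be set side by side only per length. The length used joins the exons of all annotated transcripts of a gene and can exceed that of the RNA present in these cells. It was 1.87 kb for Alad, 4.5 kb for Ppox and 13.8 kb for Fech. How far the order below depends on it was not tested. Divided by the exon length of the GENCODE annotation, the median of the 8 founder control means was highest for Alad (14.3 per kb of exon), Urod (12.4) and Alas1 (11.3). Cpox followed with 4.50, then Slc25a38 with 4.49 and Fech with 4.14. Uros (2.96) and Ppox (2.84) were lowest. Under TM the Cpox median was 11.6 per kb and that of Alas1 likewise 11.6, with Alad at 12.6 and Urod at 10.9. The order of Alad depends on the strain, since its control means ran from 4.97 per kb in PWK to 28.9 in A.

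Cpox (ENSMUSG00000022742) lies at chr16:58670292-58717636 of GRCm38 on the + strand and has 8 merged exons of 6661 bases in all, of which 204 bases overlap exons of Gpr15 on the other strand. Neither the labels nor the methods say whether reads were counted by strand, so reads of that overlap could count for either gene. In founder controls the level of Cpox was 27.6, 26.6 and 43.4 in A, 34.4 and 34.0 in B6, 17.6 in both 129 libraries, 20.7 and 24.7 in NOD, 20.8 and 22.2 in NZO, 28.4 and 29.4 in CAST, 44.4, 46.2 and 47.0 in PWK and 30.6 and 31.3 in WSB. With TM it was 91.1, 51.1 and 98.1 in A, 105 and 88.8 in B6, 44.8, 46.7 and 49.9 in 129, 58.5, 59.5 and 62.5 in NOD, 60.8, 59.9 and 83.7 in NZO, 77.7 and 71.3 in CAST, 123, 123 and 142 in PWK and 95.2, 99.4 and 79.6 in WSB. In each strain the lowest TM library was above the highest control library, but across strains the ranges met: the highest PWK control (47.0) exceeded the lowest 129 library with TM (44.8). 129 was lowest and PWK highest in both conditions.

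In the F1 controls Cpox was 22.2 and 22.3 in xCAST, 17.3, 18.5 and 16.1 in x129, 16.8, 19.8 and 18.5 in xNOD, 13.0, 17.8 and 16.1 in xNZO and 12.1, 16.6 and 14.6 in xWSB. With TM it was 66.1, 66.2 and 73.2 in xCAST, 51.4, 64.2 and 55.9 in x129, 32.0 and 59.6 in xNOD, 49.9, 55.9 and 55.2 in xNZO and 33.8, 61.4 and 69.7 in xWSB. No TM library of any cross fell to the level of a control library of any cross.

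**Figure D1:**
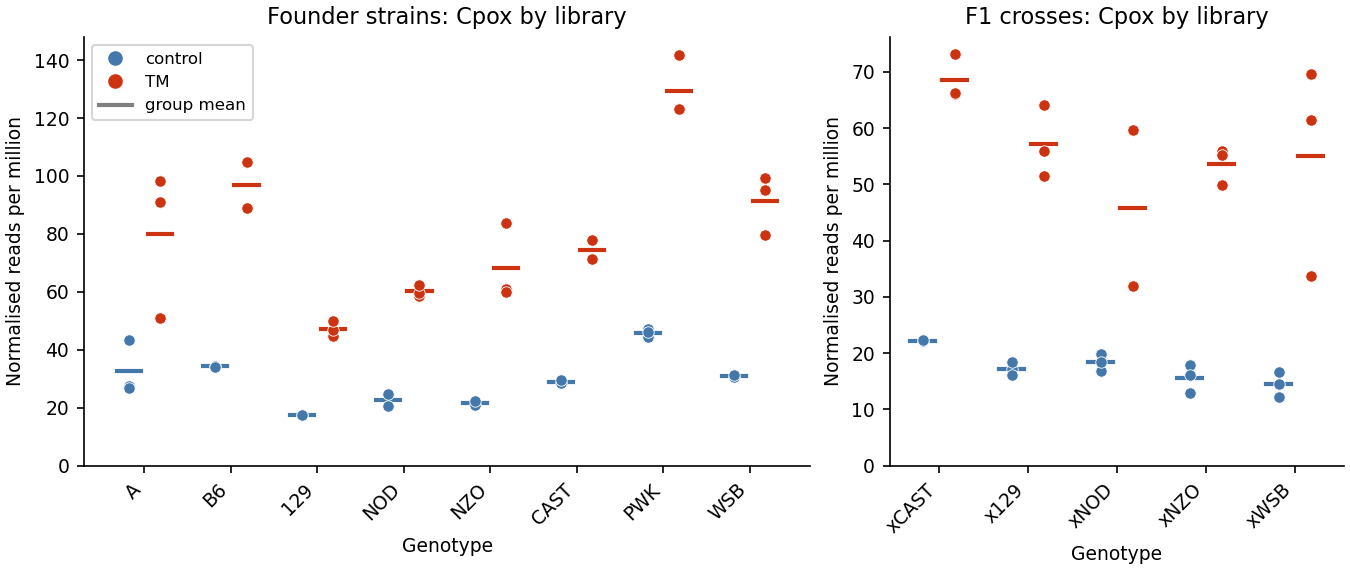
Level of Cpox in each founder library (left) and each F1 library (right), as normalised read counts on axes that start at 0, with control in blue and TM in red. Points are single libraries and bars the group means, and in all 13 genotypes the red points lie above the blue ones, from a mean of 17.6 to 47.1 in 129 and from 45.9 to 129 in PWK.

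Separation within genotypes, with every TM library above every control of its own genotype, was counted over all genes. It held in all founders for 4.12% of genes, in all crosses for 4.53%, and in all 13 genotypes for 331 of 12622 genes listed in both sets (2.62%). The share of genes separated across crosses was not counted. Within single genotypes, tested with limma on log2(value + 0.1) and called where the p adjusted by Benjamini-Hochberg was below 0.01 and the change at least 1.5 fold, Cpox was called raised in 6 of 8 founders and 3 of 5 crosses. Over all genes and genotypes that rule called 2.40% raised in founders and 2.54% in crosses, with edgeR on whole reads 2.12% and 2.74%, where Cpox was called in 5 founders and 3 crosses. By genotype the share called raised with limma ran from 0.315% (129) to 6.36% (PWK) among founders and from 0.185% (xWSB) to 4.88% (x129) among crosses. The log2 change was 1.49 (SE 0.09, adjusted p = 8.5e-08 by limma) in PWK, 1.49 (SE 0.09, adjusted p = 4.1e-09) in B6 and 1.72 (SE 0.11, adjusted p = 6.6e-06) in x129, where the wells agreed closely. The 4 genotypes without a call had changes of the same size and wider errors: 1.28 in A (SE 0.31, limma adjusted p = 0.111), 1.64 in NZO (SE 0.19, adjusted p = 0.0168), 1.25 in xNOD (SE 0.25, adjusted p = 0.0146) and 1.87 in xWSB (SE 0.28, adjusted p = 0.0330). When all libraries of a set shared 1 estimate of the spread, Cpox was called in all 8 founders and all 5 crosses, with limma adjusted p no higher than 0.000575, a fit that called 3.26% of genes raised over the founders and 3.39% over the crosses. Without the trend in the prior variance it was called in 2 founders, NOD and PWK.

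In A, xNOD and xWSB 1 or 2 libraries stood apart from their replicates. TM replicate 2 of A had 51.1 against 91.1 and 98.1, and control replicate 1 of A had 43.4 against 27.6 and 26.6. TM replicate 1 of xNOD (32.0) and of xWSB (33.8) lay well below the other TM libraries of their cross and above its controls. Of the ER stress genes, Hspa5 and Ddit3 did not set these TM libraries apart in 1 direction. Hspa5 was lowest in TM replicate 1 of xNOD (4097 against 4828) and of xWSB (5060 against 5845 and 6190) and in between in TM replicate 2 of A (7750 against 7198 and 8816), while Ddit3 was highest in A and xNOD and lowest in xWSB. Herpud1 was the highest of its group in each, at 1701 in TM replicate 2 of A against 1321 and 1226, at 948 in TM replicate 1 of xNOD against 833, and at 965 in TM replicate 1 of xWSB against 830 and 718. In control replicate 1 of A, Hspa5 (1587 against 861 and 836) and Ddit3 (68.7 against 39.6 and 37.2) were the highest of the group. Herpud1 was the lowest there (55.7 against 64.8 and 62.2). The same held in TM replicate 3 of NZO, where Cpox was 83.7. Hspa5 was 8748 against 6189 and 5711, Ddit3 864 against 467 and 430, and Herpud1 1197 against 1243 and 1267. Alad was the highest of its group in TM replicate 2 of A (73.2 against 38.0 and 47.1). It was highest too in TM replicate 1 of xNOD (30.9 against 22.3) and of xWSB (12.7 against 10.9 and 11.4). Urod was likewise highest in these TM libraries. It was 38.7 in A against 21.2 and 23.9, 38.2 in xNOD against 28.9, and 26.4 in xWSB against 23.7 and 19.6. Both genes were also highest in the libraries where Cpox stood high. In TM replicate 3 of NZO, Alad was 35.5 against 24.9 and 21.7, and Urod 32.7 against 25.4 and 24.1. In control replicate 1 of A, Alad was 69.4 against 42.4 and 50.6, and Urod 39.9 against 29.3 and 29.7. The part of the libraries that stood apart in the Cpox change was not tested beyond leaving them out. Without TM replicate 2 of A the log2 change of Cpox in A was 1.57, and without its control replicate 1 it was 1.50. Without TM replicate 1 the log2 change of Cpox was 1.70 in xNOD and 2.19 in xWSB, and without TM replicate 2 of xNOD it was 0.80. Leaving out a TM library of xNOD left 1, so the spread there came from the controls alone and no call is read from those values. Cpox was called in the fit of xWSB without TM replicate 1 and in that of NZO without TM replicate 3 (1.48, where 83.7 stood against 60.8 and 59.9), but not in those of A. With a replicate block, Cpox in xWSB had a limma adjusted p of 0.0237 and was still not called. Replicate numbers were taken to pair libraries there and not in A, NZO or xNOD.

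Averaged over strains, Cpox changed by 1.45 on the log2 scale in founders (SE 0.07, limma adjusted p = 6.8e-17), which is 2.74 fold with a 95% interval of 2.48 to 3.02. In the crosses the mean was 1.65 (SE 0.10, limma adjusted p = 4.7e-12), or 3.13 fold with an interval of 2.72 to 3.61. The share of all genes called raised in these tests was 20.5% for founders and 16.9% for crosses. Of 13197 genes only 0.705% had a larger mean change in founders, and of 12803 only 0.351% in crosses. The size of the response did not pass a test of a difference between genotypes. The strain by treatment interaction had an unadjusted p of 0.918 by limma (adjusted p = 1.00, over 13197 genes of which 0.174% were called) and the cross by treatment interaction 0.372 (adjusted p = 0.800, 0.0547% called). None of the 8 genes was called in either interaction by limma or edgeR, and none had an unadjusted p below 0.05 with either tool.

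Slc25a38 (ENSMUSG00000032519, chr9:120110374-120124504, + strand) had a positive change in all 13 genotypes, as did 14.2% of genes listed in both sets. In CAST it went from 9.53 and 8.48 in control to 13.1 and 12.8 with TM, in PWK from 11.4, 11.1 and 8.0 to 13.5, 14 and 13.5, and in WSB from 15.1 and 11.2 to 17.5, 18.1 and 18.2. In these strains all TM libraries lay above all controls, which was the case for between 9.90% (xWSB) and 32.6% (B6) of genes within a genotype. The groups did not overlap here, nor in B6, in 129 or in any of the 5 crosses, while they overlapped in A, NOD and NZO. The change within a genotype lay between 0.10 on the log2 scale in NZO and 0.52 in CAST, and none was called. Over the founders the mean was 0.31 (SE 0.05, limma adjusted p = 5.1e-06), or 1.24 fold, and over the crosses 0.20 (SE 0.05, limma adjusted p = 0.0025), or 1.15 fold. Both means passed the test.

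Alas1 (ENSMUSG00000032786, chr9:106233455-106248654, - strand) showed no common direction. Its change lay between -0.22 on the log2 scale in NOD and 0.19 in WSB, negative in 10 of 13 genotypes. In NOD the controls were 65.2 and 67.7 and the TM libraries 55.6, 61.2 and 54.7, whereas in WSB the controls were 68.9 and 61.6 and the TM libraries 71.2, 72.5 and 79.8, so that the groups were separate in both strains, in opposite directions. CAST, PWK and x129 also had all TM libraries below all controls, which was the case for between 8.59% (xWSB) and 34.2% (B6) of genes within a genotype. The mean over founders was -0.03 (95% interval -0.13 to 0.07) and over crosses -0.08 (interval -0.18 to 0.03), and neither passed the test (limma adjusted p = 0.578 and 0.218). The annotation places 465 bases of its exons, 7.5%, opposite exons of 4930500F10Rik.

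Alad (ENSMUSG00000028393, chr4:62509169-62519918, - strand) was set apart by its level in untreated cells. The founder controls were 69.4, 42.4 and 50.6 in A, 38.1 and 34.1 in NOD, 37.5 and 32.3 in 129 and 27.0 and 33.6 in NZO. They were 25.1 and 21.5 in CAST, 20.1 and 16.5 in WSB, 13.9 and 16.1 in B6 and 9.14, 9.68 and 9.06 in PWK. From NZO down to PWK no strain's libraries overlapped those of the next, and A lay above NOD, while NOD, 129 and NZO overlapped their neighbours in that order. The strain effect on the control level passed the test (limma F test, adjusted p = 3.3e-07), as it did for 35.8% of all genes. The mean change with TM was -0.07 in founders (interval -0.24 to 0.10) and 0.03 in crosses (interval -0.14 to 0.19) and was not called. In the crosses, which all share a B6 mother, control means ran from 10.7 ± 3.0 (SD, n = 3) in xWSB to 22.9 ± 1.6 (SD, n = 3) in xNOD, and the cross effect passed the test too (limma adjusted p = 0.0020, against 21.4% of genes), except without control replicate 2 of xWSB (0.0114). Both sets placed the NOD, NZO and 129 genotypes above CAST and CAST above WSB, with NZO and 129 in a different order and with neighbouring crosses that overlapped.

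Uros (ENSMUSG00000030979, chr7:133686243-133710072, - strand) was low in CAST. The CAST controls were 3.31 and 2.97, while the controls of the other 7 strains lay between 8.87 and 13.7. Among crosses xCAST was likewise lowest, at 5.56 and 5.08 against 7.33 to 10.3 in the other 4 crosses. The level differed by strain (limma adjusted p = 7.7e-07) and by cross (limma adjusted p = 0.0048), although the cross effect was lost without either xCAST control (limma adjusted p = 0.0367 and 0.0810) and, narrowly, without any x129 control or control replicate 2 of xNOD (0.010 in each). The study aligned reads to strain-specific genomes, and whether Uros reads of CAST were lost in that step was not tested. With TM the CAST libraries were 5.32 and 5.05, a change of 0.71 on the log2 scale (SE 0.21, limma adjusted p = 0.0521), which was not called. The change was positive in all 13 genotypes, with a mean of 0.28 in founders (SE 0.06, limma adjusted p = 0.00016), or 1.21 fold, and 0.13 in crosses (interval -0.02 to 0.28, limma adjusted p = 0.147), where the groups overlapped in all 5. Only the founder mean passed the test.

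**Figure D2:**
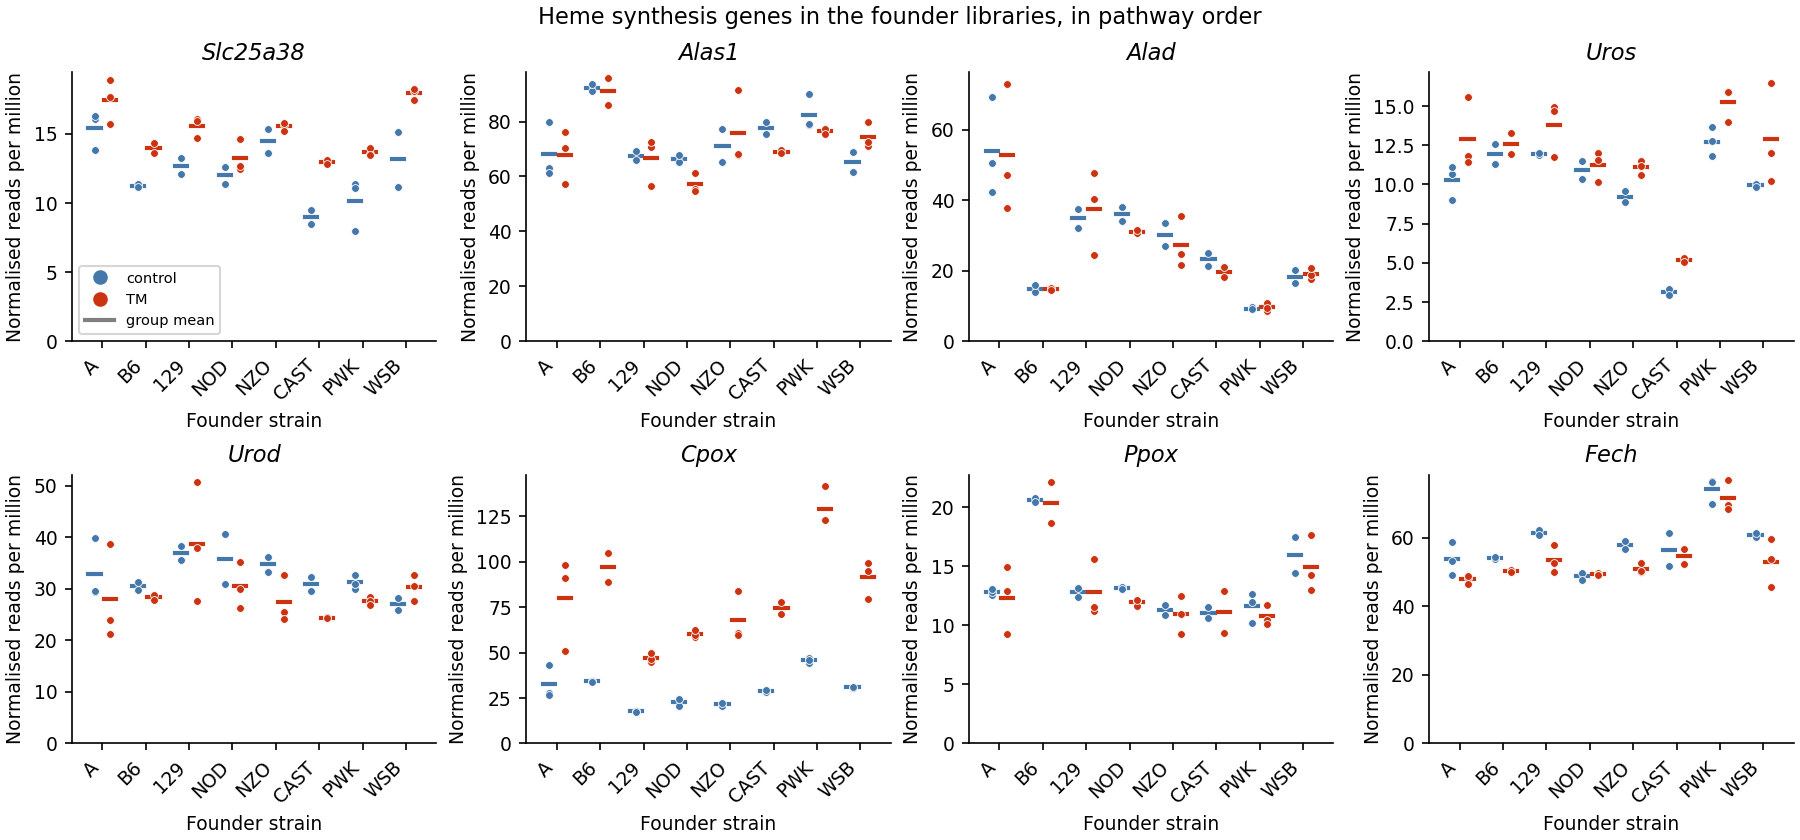
Level of the 8 genes in each founder library, as normalised read counts on axes that start at 0, in pathway order, with control in blue, TM in red and bars at the group means. Cpox separates by treatment in every strain, Alad falls from 54.1 in A to 9.29 in PWK whatever the treatment, and Uros in CAST lies at 3.14 in control and 5.19 with TM.

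Urod (ENSMUSG00000028684, chr4:116989965-116994413, - strand) had a negative change in 10 of 13 genotypes, from -0.35 in NZO to 0.24 in xNOD, and none was called. In NZO the controls were 33.3 and 36.1 and the TM libraries 25.4, 24.1 and 32.7, so the groups were apart, and in CAST 32.4 and 29.6 stood against 24.6 and 24.2. B6 and PWK also had all TM libraries below all controls. In xNOD the groups were apart in the other direction, with controls at 28.7, 27.6 and 27.9 and TM libraries at 38.2 and 28.9. Within a genotype, separation downwards held for 21.9% of genes in NZO and 32.2% in CAST, and upwards for 27.8% in xNOD. The means were -0.16 in founders (interval -0.31 to -0.01, limma adjusted p = 0.0628) and -0.10 in crosses (interval -0.26 to 0.06, limma adjusted p = 0.312). Its control level did not pass the strain test (limma adjusted p = 0.263) or the cross test (limma adjusted p = 0.768).

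Ppox (ENSMUSG00000062729, chr1:171275990-171281186, - strand), which acts directly after Cpox, changed by between -0.14 in NOD and 0.06 in xNOD. Its founder mean was -0.07 (interval -0.20 to 0.06, limma adjusted p = 0.384) and its cross mean 0.00 (interval -0.14 to 0.14, limma adjusted p = 0.991). The level differed by strain (limma adjusted p = 0.0011), as the B6 controls were at 20.8 and 20.5 and the WSB controls at 17.5 and 14.4, above all controls of the other 6 strains (10.2 to 13.3). Without either B6 control this call was lost. Exons of B4galt3 on the other strand overlap 17.5% of its exon bases, which the counting may have assigned to either gene.

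Fech (ENSMUSG00000024588, chr18:64452914-64490251, - strand) fell slightly, by 0.12 on the log2 scale on average over founders (SE 0.04, limma adjusted p = 0.0080), or to 0.921 of the control level. The background of genes called lowered in that test was 21.9%. In 129 the controls were 62.1 and 60.8 and the TM libraries 50.1, 52.7 and 57.8, in A, B6, NZO and WSB the TM libraries were also all below the controls, and in NOD, CAST and PWK the groups overlapped. Such separation downwards held for 20.9% of genes in 129, 10.5% in A, 34.2% in B6, 21.9% in NZO and 25.3% in WSB. The call of the founder mean was lost in 25 of 40 fits that left out 1 founder library each, with changes between -0.13 and -0.10. In the crosses the mean was -0.14 (SE 0.05, limma adjusted p = 0.0221) and was not called. Fech in PWK controls (69.8, 76.6 and 76.3) was above all other strains, and the strain effect on its level passed the test (limma adjusted p = 0.0053). That call was lost without any 1 control of 129, B6, NZO or PWK and without control replicate 3 of NOD, with adjusted p up to 0.0325.

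**Figure D3:**
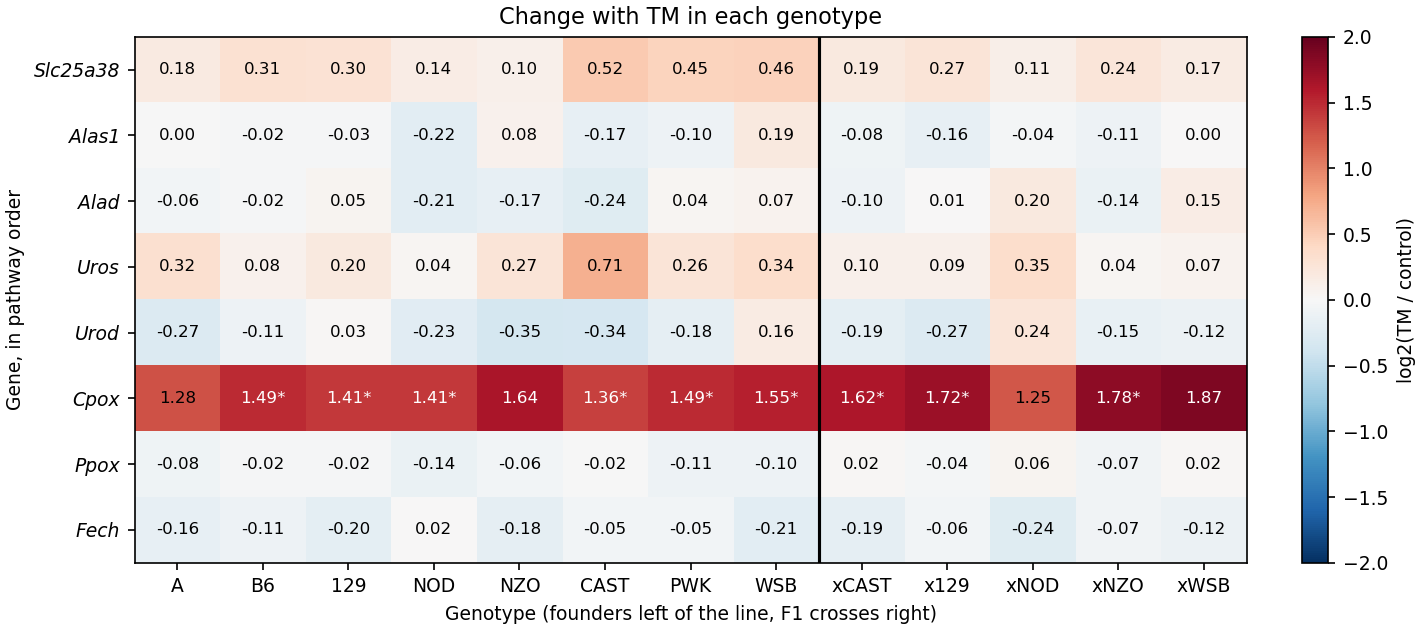
Change of each gene with TM within each genotype, as log2(TM / control) from the fit to log2(value + 0.1), with genes in pathway order and red for higher and blue for lower. An asterisk marks a call at adjusted p below 0.01 and at least 1.5 fold, and Cpox holds all 9 of these, with values of 1.25 to 1.87 against at most 0.71 in any other gene.

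Set along the pathway, the mean change over founders was 0.31 for Slc25a38, -0.03 for Alas1, -0.07 for Alad, 0.28 for Uros, -0.16 for Urod, 1.45 for Cpox, -0.07 for Ppox and -0.12 for Fech. Thus 3 of 8 were called raised and 1 lowered, against 20.5% raised and 21.9% lowered of all genes, and the median of the 8 was -0.05 beside -0.04 over all genes. In crosses 2 of 8 were called raised, against 16.9% of all genes, and 0 lowered, against 18.7%, with a median of 0.01 beside -0.04. With limma 1 gene had an unadjusted p below 0.05 in the lowered direction there, and edgeR also called 0. Within single genotypes 0 of 64 founder tests and 0 of 40 cross tests called a gene lowered by limma, with 1 and 0 at an unadjusted p below 0.05, and edgeR also called 0 in each set. The share of all genes called lowered was 1.55% in founders and 1.47% in crosses by limma, and 1.14% and 1.33% by edgeR.

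**Figure D4:**
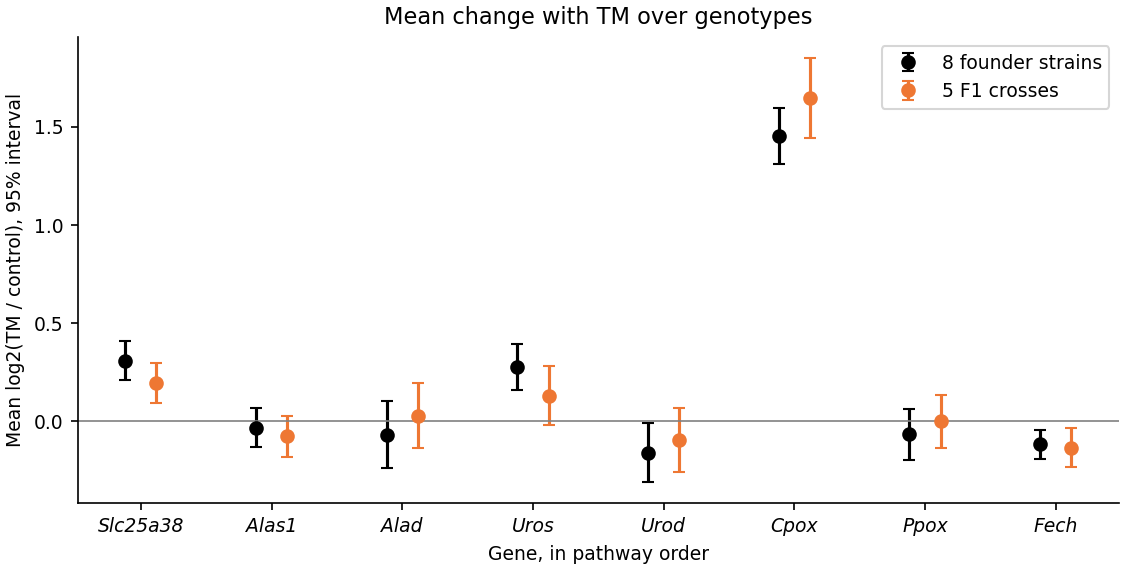
Mean log2(TM / control) of each gene over the 8 founder strains (black) and the 5 F1 crosses (orange), in pathway order, with 95% intervals from the moderated fit. Cpox stands at 1.45 and 1.65 and no other interval reaches 0.5.

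The level without TM passed the strain test for 5 of the 8 genes (Alad, Uros, Cpox, Ppox and Fech), against 35.8% of all genes. For Alas1 the limma adjusted p was 0.0332, with B6 highest at 92.4 ± 1.9 (SD, n = 2) and WSB lowest at 65.2 ± 5.1 (SD, n = 2), and without control replicate 1 of A, at 79.9 the highest of its group, it was 0.0015. For Slc25a38 it was 0.0188, with means from 9.01 ± 0.74 (SD, n = 2) in CAST to 15.4 ± 1.4 (SD, n = 3) in A, and without control replicate 3 of WSB, at 11.2 against 15.1, it was 0.00935. Cpox differed strongly (limma adjusted p = 0.00015). PWK, at 45.9 ± 1.3 (SD, n = 3), did not overlap B6, at 34.2 ± 0.3 (SD, n = 2), and 129, at 17.61 ± 0.01 (SD, n = 2), did not overlap NZO, at 21.5 ± 1.0 (SD, n = 2), while B6, A and WSB overlapped each other in that order, as did NOD and NZO. The strain ratio was 2.60 in control and 2.74 with TM. Between crosses 2 of the 8 genes, Alad and Uros, passed, against 21.4% of all genes, and Cpox did not (limma adjusted p = 0.0445).

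**Figure D5:**
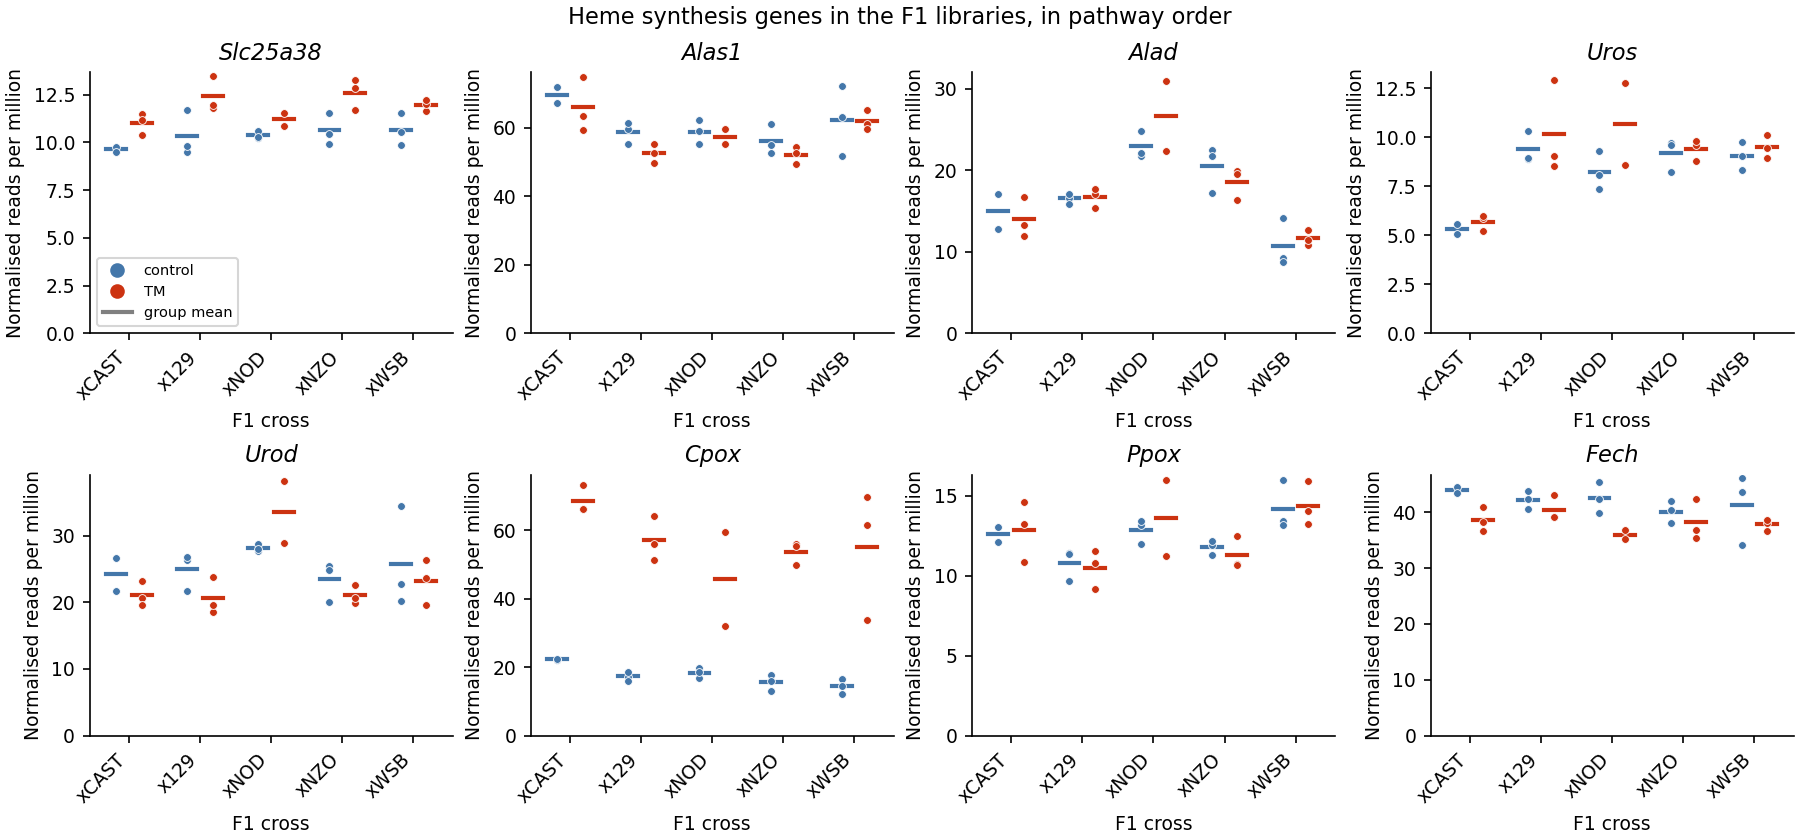
Level of the 8 genes in each F1 library, as normalised read counts on axes that start at 0, with control in blue, TM in red and bars at the group means. xCAST is lowest for Uros (5.32 in control), xNOD highest for Alad (22.9 in control), and Cpox is the gene whose group means differ by more than 2 fold in all 5 crosses.

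A strain effect on the response was also tested in a way that takes the ratio of every TM library to its strain's median control and so leaves out the spread of the controls. Because that spread is left out, a call by this test does not stand for an interaction. It called 2.90% of all genes and none of the 8 (limma, 1 of them with an unadjusted p below 0.05). Slc25a38 was that gene, with an adjusted p of 0.116 by the moderated limma test and 0.00668 by the unmoderated F test, which called 2.78% of all genes.

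Of 10 genes for heme uptake, export and breakdown, 4 were called raised and 3 lowered in the founder mean, with a median of -0.02. Slc48a1, which carries heme out of lysosomes, fell by 0.34 in founders (SE 0.07, limma adjusted p = 0.00028) and by 0.56 in crosses (SE 0.09, limma adjusted p = 1.8e-05), and Flvcr2, a plasma membrane transporter, rose by 0.45 in founders (SE 0.14, limma adjusted p = 0.0089) with a cross mean of 0.21 that was not called. Of 12 listed mitochondrial carriers and partners, 4 rose and 1 fell in the founder mean (median 0.12). Clpx, the mitochondrial unfoldase that acts on Alas1, rose by 0.39 (SE 0.05, limma adjusted p = 7.1e-08) and Shmt2, a mitochondrial serine hydroxymethyltransferase that makes glycine, by 0.46 (SE 0.04, limma adjusted p = 1.3e-10), with cross means of 0.43 and 0.44 that were also called.

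Among 5 genes for heme A and cytochrome c maturation, 1 rose and 1 fell in the founder mean. Cyc1, cytochrome c1, fell by 0.23 (SE 0.06, limma adjusted p = 0.0015), and Cycs, cytochrome c, had a founder mean of 0.23 that was not called (limma adjusted p = 0.0145). In crosses the calls were the other way round. The Cycs mean was 0.32 there (limma adjusted p = 0.0036), and the Cyc1 mean of -0.22 was not called (limma adjusted p = 0.0197). Among 10 genes of iron handling 2 rose and 3 fell in the founder mean. Steap3, an endosomal ferrireductase, fell by 0.46 (SE 0.06, limma adjusted p = 1.2e-07) and by 0.51 in crosses, while Slc40a1, the iron exporter ferroportin, had a founder mean of -0.60 with an SE of 0.26 that was not called. Among 6 listed transcriptional regulators of Alas1 and Hmox1, 4 rose and 1 fell in founders, with a median of 0.33. Nr1d2, a heme-binding nuclear receptor, rose by 0.66 (SE 0.07, limma adjusted p = 7.7e-09) and was called in 3 founders, and Nfe2l2 (NRF2), an activator of Hmox1, rose by 0.55 (SE 0.06, limma adjusted p = 4.7e-09) and was called in 1. The regulator that fell was Nr1d1, with a founder mean of -0.42 (SE 0.11, limma adjusted p = 0.0017). Its cross mean was -0.75 (SE 0.10, limma adjusted p = 2.6e-06). In the same test 20.5% of all genes rose and 21.9% fell.

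The genes whose pattern was most like that of each gene were found from the Pearson correlation of log2(value + 0.1) over the 40 founder libraries, each gene centred on its strain mean, among 13197 genes. Since control and TM libraries both enter, this measure mostly follows the response to TM and any trait of single libraries. For Cpox the top genes were Nfxl1 (r = 0.988), Hyou1 (r = 0.986), a chaperone of the ER, and Ibtk (r = 0.983), which rose by 1.51, 1.63 and 1.21 on the log2 scale in the founder mean. For Slc25a38 they were Itfg2 (r = 0.831), the mitochondrial carrier Slc25a33 (r = 0.829) and Dok5 (r = 0.827), and for Uros they were Tmem70 (r = 0.798), Leprotl1 (r = 0.796) and ENSMUSG00000086488 (r = 0.791). For Alas1 they were Fbxl6 (r = 0.872), Mdh2 (r = 0.872) and Dctn2 (r = 0.869), for Alad Ubxn6 (r = 0.926), ENSMUSG00000062381 (r = 0.917) and Rpl18 (r = 0.912), and for Urod Atp5g3 (r = 0.928), Rps10 (r = 0.928) and Rplp1 (r = 0.927). For Ppox they were 2310009B15Rik (r = 0.705), Mageh1 (r = 0.702) and Pkd1l3 (r = 0.699), and for Fech St6gal1 (r = 0.781), Kctd12b (r = 0.775) and Tcaf2 (r = 0.773).

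Among the 8 genes themselves the same measure was 0.836 between Alad and Urod, 0.769 between Alas1 and Alad and 0.666 between Alas1 and Urod. The high Alad and Urod values of single libraries fell together: TM replicate 1 of 129 had Alad at 47.7 and Urod at 50.7, against 24.5 and 27.6 in TM replicate 3, and TM replicate 2 of A had 73.2 and 38.7, against 38.0 and 21.2 in TM replicate 1. Cpox correlated at 0.726 with Slc25a38 and at 0.586 with Uros, which also rose on average, at -0.578 with Fech, which fell, and at -0.151 with Alad. The correlations share the same libraries and their depth and are given as a description only.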

How the data were processed

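RNA-seq libraries (TruSeq RNA kit) of MEFs were analysed from the processed tables, 68 in all. Per the study's methods and processing notes, the authors checked reads with FastQC, trimmed them with Trimmomatic, aligned them to strain-specific genomes (GRCm38/mm10) with TopHat 1.4.1, dropped libraries that clustered apart from their condition and scaled the others with edgeR's TMM. In the methods, the FastQC and Trimmomatic steps are described for the F1 crosses. The deposited values are labelled FPKM, but within a library they are whole multiples of 1 step, so the signal the authors deposited is reads per gene scaled to a common library size, not divided by length, and was tested on a log scale as planned for FPKM. Whole reads (within 0.02) were recovered for 66 libraries, giving 7091923 to 21530282 reads in founders and 6442976 to 29528457 in crosses. Lines of reads without a gene were left out of the F1 tables. Whether counting used strand is not given in the sources used here.

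Genes with at least 0.5 in 2 libraries were fitted with limma 3.58.1 in R 4.3.3 on log2(value + 0.1) with a trend, so fold changes of low genes are understated. Each genotype was fitted alone, and each set jointly for the mean effect, the interaction and the control level, with Benjamini-Hochberg adjustment over all genes. Calls needed an adjusted p below 0.01 and, within a genotype, at least 1.5 fold. The 95% intervals are from the moderated fit. As alternatives, the pseudocount was 1, the filter was left off or set to a mean of at least 2, and other fits used median-of-ratios scaling, no trend, 1 fit over a set, a replicate block, an unmoderated F test, adjustment over raised genes alone, edgeR 4.0.16 quasi-likelihood tests on whole reads, and leaving out each library. Replicate numbers were taken to pair the samples within xWSB, where all 3 same-numbered pairs correlated over 0.1 in their deviations from the group means, and not elsewhere. Scripts were tested on simulated data. The text names all 8 genes, list genes called in at least 4 of 8 founders or otherwise the 2 of each list with the largest absolute founder mean, and the 3 genes most alike to each. Nr1d1 is named besides, as the regulator of its list that fell. A gene of the lists is not reported here. The members and lists were chosen with earlier results of these data known. Positions are from GENCODE on GRCm38.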

Additional observations from a re-analysis of the deposited data

Results flagged for a closer look

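Slc25a38 had an adjusted p of 0.00668 for a strain effect on the TM response by the unmoderated F test, with changes from 0.10 in NZO to 0.52 in CAST on the log2 scale. The moderated limma test gave an adjusted p of 0.116, and the strain by treatment interaction, which takes in the spread of the controls, an unadjusted p of 0.285 by limma.

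Alas1 had all TM libraries below all controls in CAST (log2 change -0.17), NOD (-0.22) and PWK (-0.10), and all above in WSB (0.19). Such separation held downwards for 32.2% of genes in CAST, 21.1% in NOD and 23.4% in PWK, and upwards for 25.7% in WSB. The difference between strains was tested by the strain by treatment interaction, which had an unadjusted p of 0.517 by limma and was not called.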

How the results depend on the processing

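Cpox was higher with TM in every genotype under every alternative that could be fitted, including each fit without 1 library, and its mean changes were called in all of them. Counts of calls moved more. The 6 calls in founders fell to 2 without the trend and lay between 5 and 7 when 1 library was left out, and the 3 calls in crosses rose to 5 in 1 fit over the set and lay between 3 and 4. The unmoderated F test called 1 gene for a strain effect on the response, against 0. When 1 library was left out, 0 to 1 genes were called lowered in the mean over founders and 0 to 1 over crosses, 3 to 6 differed in control level between strains and 1 to 2 between crosses.

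Over a whole set the replicate numbers did not pair the samples: deviations of same-numbered control and TM libraries correlated at between -0.53 and 0.31 over 29 pairs, 7 of them over 0.1. In xWSB all 3 pairs were over 0.1 (0.26, 0.16 and 0.12), and there the block changed no call. Both NZO pairs were too (0.19 and 0.22), but 2 pairs were not taken to show pairing. With the block Cpox was called in NZO (log2 change 1.71) and in xNOD (1.26), where it was not called without it. Replicate numbers were not taken to pair the samples in either, so these calls are not counted above. With a replicate block, 0 genes were called lowered in the mean over founders against 1, and 1 was called raised over crosses against 2. Fech (-0.15) and Uros (0.23) in founders and Slc25a38 in crosses (0.19) were then not called. The block could not be fitted within B6 or CAST.

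Some uncalled changes turned direction. The mean change of Ppox over crosses was 0.000908 with the block and 0.025 with edgeR, and between -0.052 and 0.050 without 1 library, and that of Alad between -0.020 and 0.073. Without 1 library, Fech lay between -0.17 and 0.072 in CAST and between -0.015 and 0.046 in NOD, and Uros between -0.032 and 0.12 in NOD, between -0.089 and 0.21 in x129 and between -0.040 and 0.084 in xNZO. The cause was not tested. Where leaving out a library left 1 in an arm, that library was assumed to vary like the other arm. Groups of 2 or 3 wells limit what single genotypes can show.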
